A study of Mus musculus with 3 samples.

Results

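Cell cycle and DNA replication genes were examined in unstimulated mouse bone marrow-derived macrophages. The set is a list of 47 gene symbols, matched to the gene names in the deposited tables, and all 47 were found among 55536 annotated genes. Membership is by gene name alone, and no measured value enters the rule. The members were, however, chosen with earlier results of these data known. The 47 fall into 6 roles: 9 regulators of the G1 phase, 5 genes of the passage from G1 into S phase, 10 genes that license replication origins, 6 genes of DNA synthesis and nucleotide supply, 6 genes that act from S to G2, and 11 genes of mitosis.

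Ribosome-depleted total RNA of the cytosolic fraction was sequenced from primary macrophages of strain C57BL/6J. The series holds 1 group of 3 libraries, labelled biological replicates 1, 2 and 3, all at 0 minutes of a treatment with 100 ng/ml lipid A, the Toll-like receptor 4 agonist of bacterial endotoxin. The labels report no genotype beyond the strain, and sex and age were not collected. Each library has its own biosample while all share 1 donor label, so the spread between libraries may be technical. With 1 group there is no condition to compare, and the smallest p that exact sign flips of 3 values allow is 0.25, so levels and differences are described without a test.

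Bone marrow macrophages grow out of dividing precursors under the growth factor M-CSF, and mature cells slow their division or stop. D-type cyclins with Cdk4 and Cdk6 phosphorylate the retinoblastoma protein, which frees E2F factors to switch on cyclin E and the replication genes. Cyclin A, cyclin B and Cdk1 then carry the cell through G2 into mitosis, and their genes are held off in resting cells by the DREAM complex through a promoter element called the cell cycle homology region. In bulk RNA, fewer cells in a phase and less RNA per cell cannot be told apart.

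Libraries held 26318750, 41897235 and 56290280 gene-assigned counts in replicates 1, 2 and 3. Macrophage identity genes were abundant, led by Lyz2 and Lgals3, with 14 of 15 at a TPM (transcript abundance scaled for length and library) of at least 1 in every library. None of 10 progenitor and promyelocyte markers reached that level; Prtn3 and Kit were the highest, and the summed TPM of the list was 1.92, 1.88 and 1.26. Granulocyte markers, led by S100a9 and S100a8, summed to between 24.0 and 26.1 TPM and erythroid markers, led by Epor and Alas2, to between 1.37 and 2.09, with Hba-a1, Hbb-bs, Hbb-bt and Car1 among those at 0 counts. Lymphoid markers, led by Cd79b and Cd79a and with Cd3e at 0, and fibroblast markers, led by Col1a2 and Col1a1 and with Lum at 0, each summed to under 1 TPM in every library. Replicate 1 stood apart in interferon-stimulated genes, led by Bst2 and Ifit2, whose summed TPM was 870 against 431 and 444 in replicates 2 and 3. Replicate 3 stood apart in nuclear-retained noncoding RNA, led by Malat1 and Neat1, with a summed TPM of 1102 against 243 and 224.

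Transcripts of every phase were present, at levels that differed by role. Of the 47 members, 34 had a TPM of at least 1 in every library and 7 stayed below 1 in every library. The share at 1 or more is to be read against 41.0% of all 22028 protein-coding genes. Protein-coding genes held a mean of 23.3% of all TPM in these libraries. With TPM rescaled over protein-coding genes, 47 members reached 1 in every library. The share of all protein-coding genes on that scale was not taken, and the 41.0% does not apply to it. The median member stood at 2.17 TPM, beside a median of 0.139 TPM over all protein-coding genes. Among the 9023 protein-coding genes that reached 1 in every library the median was 7.14 TPM, but the members were not put through that cut. G1 regulators had a median of 9.21 TPM, licensing genes 3.48, S to G2 genes 2.49, DNA synthesis genes 1.52, mitosis genes 0.984 and G1/S genes 0.635. These medians are back-transformed from log2(TPM + 1). On that log2 scale the G1 median exceeded the mitosis median by 2.47, 2.26 and 2.55 in replicates 1, 2 and 3, so the gap between these roles was present in each library.

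**Figure D1:**
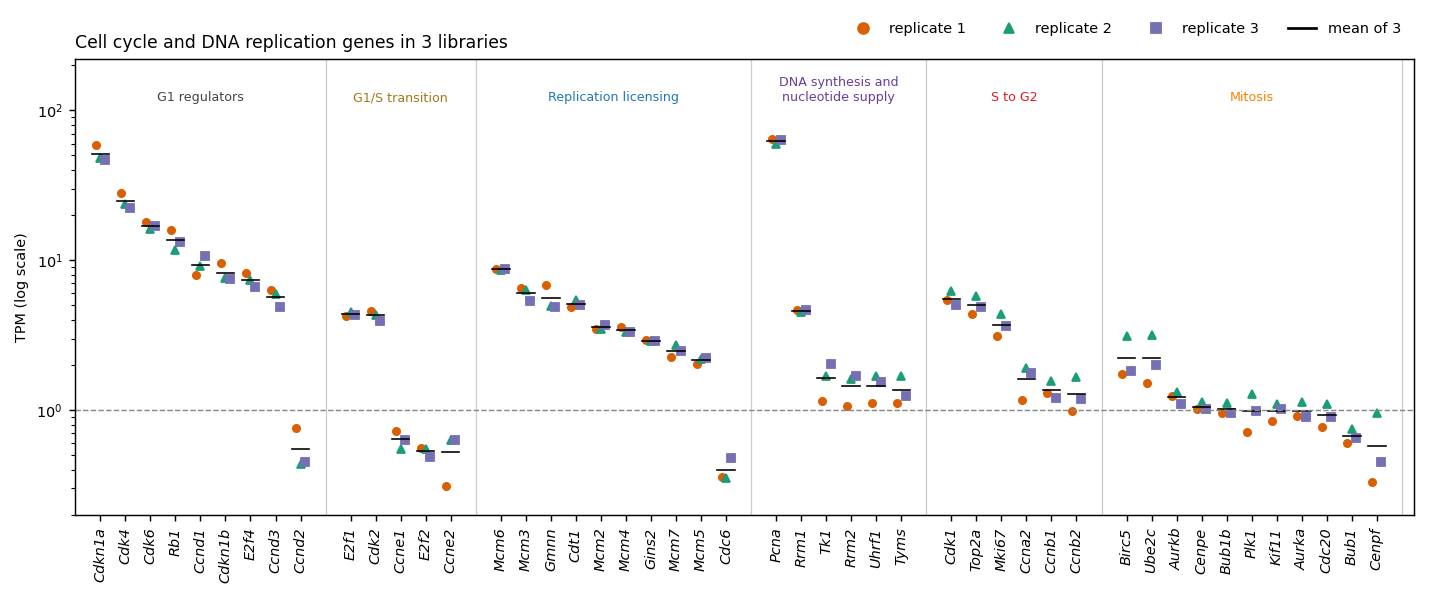
TPM of each member (log axis) in replicates 1, 2 and 3, grouped by role, with the mean of the 3 libraries as a black bar and a dashed line at a TPM of 1. G1 regulators and Pcna take the top of the range, from 9.27 to 62.3 TPM for the 6 highest members, and most mitosis genes sit near 1.

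The order of levels was led by Pcna, Cdkn1a, Cdk4, Cdk6, Rb1 and Ccnd1, and in this stretch the 3 libraries of each gene did not overlap those of the next gene down, except that Ccnd1 overlapped Mcm6 below it. Further down the order most steps were within the spread: 37 of 46 neighbouring pairs had ranges that overlapped. The lowest member was Cdc6, at 0.36, 0.35 and 0.48 TPM.

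Among the G1 regulators, inhibitors and kinases were both well expressed. Cdkn1a (chr17:29090976-29100727, mm10) encodes p21, which blocks cyclin-dependent kinases and binds PCNA, and stood at 58.8, 48.4 and 46.3 TPM. Cdkn1b encodes p27, a kinase inhibitor that accumulates in resting cells, and stood at 9.60, 7.57 and 7.55 TPM. Both inhibitors had their highest TPM in replicate 1, with replicates 2 and 3 close together.

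The kinase partners of the D cyclins followed. Cdk4 had 28.2, 23.9 and 22.5 TPM and Cdk6 had 17.9, 16.2 and 16.9 TPM. Rb1, the pocket protein that restrains E2F, had 15.9, 11.6 and 13.3 TPM, and E2f4, the repressor-type E2F found in DREAM, had 8.27, 7.33 and 6.63 TPM. All 4 were highest in replicate 1 on the TPM scale, but in CPM only Cdk4 was. Cdk6 was lowest there, at 254.5, 279.9 and 293.8 CPM, Rb1 was highest in replicate 3 and E2f4 in replicate 2.

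The 3 D-type cyclins, which couple growth factor signals to the cycle, differed in level and in their pattern over libraries. Ccnd1 had 7.91, 9.22 and 10.7 TPM, Ccnd3 had 6.30, 5.95 and 4.88 TPM, and Ccnd2 had 0.76, 0.44 and 0.45 TPM. Ccnd1 was thus lowest in replicate 1, where Ccnd2 was highest. In CPM, replicate 1 was below the mean of the other 2 libraries by 0.55 log2 units for Ccnd1 and above it by 0.67 for Ccnd2. The ratio of highest to lowest library was 1.56 (95% exact interval 1.47 to 1.66, counting error only) for Ccnd1 and 1.68 (1.38 to 2.05) for Ccnd2.

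G1/S genes split into a pair at about 4 TPM and 3 genes below 1. E2f1, an activating E2F, had 4.25, 4.52 and 4.32 TPM, and Cdk2, the partner of cyclin E, had 4.59, 4.33 and 3.96 TPM. E2f2 had 0.56, 0.55 and 0.49 TPM. The 2 cyclin E genes were also low, Ccne1 at 0.73, 0.55 and 0.63 TPM and Ccne2 at 0.31, 0.63 and 0.63 TPM. Ccne2 rests on 40, 111 and 187 counts and was the member with the lowest replicate 1 relative to the other libraries, by a log2 CPM difference of -1.02.

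The MCM2-7 helicase is loaded at origins as a ring of 6 different subunits, yet its 6 transcripts were not level with one another. Mcm6 (chr1:128331590-128359664, mm10) was highest at 8.71, 8.54 and 8.80 TPM, followed by Mcm3 at 6.57, 6.33 and 5.36 TPM. Mcm2 had 3.48, 3.50 and 3.71 TPM and Mcm4 had 3.59, 3.32 and 3.30 TPM. Those 2 overlapped in range, while Mcm6 lay above every library of the other 5 subunits. Mcm7 had 2.27, 2.71 and 2.48 TPM and Mcm5 had 2.03, 2.20 and 2.22 TPM. For Mcm3 a mean of 60.5% of TPM was in its protein-coding transcript, which had 3.64, 3.50 and 3.80 TPM. The leading coding transcripts of Mcm2 and Mcm4 lay near it, at 3.47, 3.49 and 3.62 TPM and at 3.49, 3.22 and 3.30 TPM.

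The genes that load the helicase were uneven too. Cdt1, a loading factor, had 4.89, 5.44 and 5.02 TPM, while Cdc6, its partner at the origin, had a mean of 0.397 TPM. Gmnn, which encodes the Cdt1 inhibitor geminin, had 6.87, 4.96 and 4.87 TPM and was highest in replicate 1. Gins2, a subunit of the GINS complex that joins the active helicase, had 2.95, 2.87 and 2.90 TPM, an SD of 0.0404.

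Promoters of this role are shown because they share letters that the list did not use. RefSeq promoter windows (build GRCm38.p6, 250 bases before to 50 after the start site) were matched for 37 of the 47 members and for 16500 protein-coding genes. The E2F-like motif TTTNNCGC, searched on both strands, was found in 6 of 7 matched licensing promoters (Mcm3, Mcm5, Mcm6, Mcm7, Cdc6 and Cdt1), in 12 of all 37 member promoters and in none of 10 mitosis promoters. Of all protein-coding promoters 6.56% held it, and of the 7217 whose genes reached a TPM of 1 in every library 9.52% did. The narrower forms TTTCCCGC or TTTGGCGC were in the same 6 licensing promoters and in 2.16% of all promoters. Capitals mark the match on either strand, which in Mcm5 and Mcm6 is a run of overlapping matches, in windows at chr8:75109326-75109393 (plus strand), chr1:128359778-128359845 (minus strand) and chr11:98907983-98908050 (plus strand).
Mcm5: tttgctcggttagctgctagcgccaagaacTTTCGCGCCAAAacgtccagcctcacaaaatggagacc
Mcm6: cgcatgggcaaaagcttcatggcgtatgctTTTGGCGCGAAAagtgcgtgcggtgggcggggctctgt
Cdc6: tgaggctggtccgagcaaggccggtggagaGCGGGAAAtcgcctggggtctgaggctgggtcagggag

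The 3 genes hold the motif at levels that range from Cdc6, the lowest member, to Mcm6, the highest of the licensing genes. A match is a description of the letters in the window and shows no binding.

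DNA synthesis genes were dominated by Pcna, the sliding clamp of the replicative polymerases, which also serves DNA repair. Pcna (chr2:132249162-132253314, mm10) had 63.9, 59.6 and 63.2 TPM. Rrm1, the large ribonucleotide reductase subunit, had 4.67, 4.48 and 4.65 TPM. Its small partner Rrm2, which is made in S phase, had 1.06, 1.61 and 1.69 TPM. The 2 subunits therefore differed in level and in pattern: Rrm1 was even over libraries and Rrm2 was lowest in replicate 1. In CPM, replicate 1 lay below the other libraries by a log2 difference of -0.84 for Rrm2 and -0.10 for Rrm1.

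Genes that make thymidine nucleotides were low. Tk1, the S phase thymidine kinase, had 1.15, 1.70 and 2.03 TPM, and Tyms, thymidylate synthase, had 1.12, 1.70 and 1.25 TPM. Uhrf1, which guides maintenance methylation behind the fork, had 1.12, 1.69 and 1.55 TPM. All 3 were lowest in replicate 1. Tk1 rests on 64, 167 and 235 counts and Tyms on 53, 123 and 126.

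From S to G2, Cdk1 and Top2a were the highest at the gene level. Cdk1, the mitotic kinase, had 5.41, 6.22 and 5.01 TPM, and Top2a, the topoisomerase that untangles replicated chromosomes, had 4.40, 5.79 and 4.84 TPM. Mki67, the proliferation marker that coats mitotic chromosomes (chr7:135689784-135716361, mm10), had 3.10, 4.39 and 3.66 TPM. Each was highest in replicate 2. Protein-coding transcripts held a mean of 59.9% of the TPM of Cdk1, 64.9% of Top2a and 100% of Mki67, so the gene-level order need not hold for coding mRNA. The leading coding transcript of Cdk1 had 2.77, 3.51 and 2.57 TPM and that of Top2a 2.78, 3.78 and 3.21 TPM. That of Mki67 had 3.00, 4.33 and 3.51 TPM. Cdk1 has 3 protein-coding transcripts, Mki67 has 2 and Top2a has 1. The others of Cdk1 had 0.19, 0.18 and 0.20 TPM (Cdk1-201) and 0.48, 0.00 and 0.08 TPM (Cdk1-207). The other of Mki67 had 0.10, 0.06 and 0.15 TPM. Leading transcripts alone therefore do not give the order of coding mRNA. The cyclins of these phases were lower, Ccna2 at 1.17, 1.92 and 1.77 TPM, Ccnb1 at 1.30, 1.57 and 1.21 TPM and Ccnb2 at 0.99, 1.66 and 1.19 TPM.

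Mitosis genes lay close to 1 TPM, and 4 of 11 reached it in every library. In replicate 1, the smallest library, they rest on between 53 counts (Ube2c) and 333 counts (Cenpe). The 2 highest were Ube2c, the ubiquitin-conjugating enzyme of the anaphase-promoting complex (chr2:164769898-164778822, mm10), at 1.52, 3.17 and 2.00 TPM, and Birc5, which encodes survivin of the chromosomal passenger complex, at 1.75, 3.12 and 1.82 TPM. Both were highest in replicate 2. Replicates 1 and 3 were close for Birc5, while for Ube2c replicate 3 lay between the other 2. The passenger kinase Aurkb had 1.25, 1.32 and 1.10 TPM, and Aurka, the spindle pole kinase, had 0.91, 1.14 and 0.90 TPM. Plk1, the polo-like kinase of mitotic entry and exit, had 0.71, 1.28 and 0.99 TPM. Here too replicate 2 held the highest value of each kinase.

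The checkpoint genes Bub1 and Bub1b, which delay anaphase until chromosomes attach, had means of 0.667 ± 0.0764 and 1.01 ± 0.0954 TPM (SD, n = 3), and Cdc20, the activator they restrain, had 0.923 ± 0.166 TPM. The motor Kif11, which separates the spindle poles, had 0.987 ± 0.127 TPM, and the kinetochore motor Cenpe had 1.05 ± 0.0666 TPM. Cenpf, a large kinetochore protein, had 0.33, 0.95 and 0.45 TPM, the widest TPM range of the role relative to its level.

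Promoters of these last 2 roles are shown because their members moved together over libraries, as described next, and because 11 of the 15 matched ones held the cell cycle homology region motif TTTGAA on either strand. That was 4 of 5 S to G2 promoters (Ccnb2, Cdk1, Top2a and Mki67) and 7 of 10 mitosis promoters (Bub1b, Aurka, Plk1, Cdc20, Ube2c, Kif11 and Cenpf). Mcm2 was the only other member with a match, out of 22 other promoters. Of all protein-coding promoters 15.5% held TTTGAA, and 11.4% of those whose genes reached a TPM of 1 in every library. The motif CCAAT, the NF-Y element, was searched after values had been seen and was in 27 of 37 member promoters. It was in 5 of 5 S to G2 and 9 of 10 mitosis promoters. It was also in 5 of 7 licensing, 4 of 6 DNA synthesis, 2 of 4 G1/S and 2 of 5 G1 promoters. Of all protein-coding promoters 38.7% held it. Capitals mark TTTGAA or its reverse complement in windows at chr10:69352948-69353013 (Cdk1, minus strand), chr7:135716460-135716525 (Mki67, minus), chr4:118437344-118437391 (Cdc20, minus), chr2:164769870-164769928 (Ube2c, plus) and chr19:37376333-37376381 (Kif11, plus).
Cdk1: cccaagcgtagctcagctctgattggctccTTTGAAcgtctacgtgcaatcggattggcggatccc
Mki67: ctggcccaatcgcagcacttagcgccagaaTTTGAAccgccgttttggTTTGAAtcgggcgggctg
Cdc20: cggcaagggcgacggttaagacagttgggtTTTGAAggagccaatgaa
Ube2c: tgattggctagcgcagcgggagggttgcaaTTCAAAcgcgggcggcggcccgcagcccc
Kif11: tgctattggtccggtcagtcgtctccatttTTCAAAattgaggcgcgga

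Mki67 holds 2 copies within 1 window, and the Cdc20, Ube2c and Kif11 matches lie within 30 bases of the start site. The TTTGAA matches of Bub1b, Aurka, Plk1 and Cenpf lie past the start site and are named only.

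The 3 libraries were ordered alike by every S to G2 and mitosis gene. In CPM, replicate 1 was lowest and replicate 2 highest for 17 of 17 of these members, for 26 of all 47 members, and for 14.9% of the 12413 genes past the count filter. Among the 7518 genes with mean CPM between 2.70 and 69.2, the range of the 17, that share was 15.5%. On the TPM scale 12 of the 17 and 17 of the 47 showed this order. This order was noticed in the data, and no test of it was made.

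Summed over the 17 genes, the level was 144, 238 and 192 CPM in replicates 1, 2 and 3. Replicate 2 was 1.65 times replicate 1 (95% exact interval 1.59 to 1.71, counting error only) and 1.24 times replicate 3 (1.21 to 1.28). Gene by gene, the interval of replicate 2 over replicate 1 lay above 1 for all 17, where 15.8% of genes in their CPM range did, with the smallest ratio, 1.36 (1.14 to 1.61), for Cdk1 and the largest for Ube2c, whose CPM was 1.94 in replicate 1 and 4.86 in replicate 2. That of replicate 2 over replicate 3 lay above 1 for 15 of 17, with 24.0% of those genes, and that of replicate 3 over replicate 1 for 9 of 17, with 20.8%. Among the other 30 members the interval lay above 1 for 16 in replicate 2 over replicate 1. It did for 7 in replicate 2 over replicate 3 and for 17 in replicate 3 over replicate 1. Mean CPM of these 30 ran from 2.13 to 276, and no share was taken over genes of that range, so their counts have no matched background. The licensing genes summed to 163, 190 and 189 CPM, where replicate 2 was 1.17 times replicate 1 (1.13 to 1.21) and 1.01 times replicate 3 (0.977 to 1.04). The G1 regulators summed to 745, 776 and 788 CPM, where replicate 2 was 1.04 times replicate 1 (1.02 to 1.06). For these 2 roles the direction turned with the scale: in TPM the licensing genes summed to 41.7, 40.2 and 39.1 and the G1 regulators to 153.6, 130.6 and 129.1, both highest in replicate 1. The 17 S to G2 and mitosis genes summed to 27.0, 37.7 and 29.5 TPM, in the same order as in CPM.

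**Figure D2:**
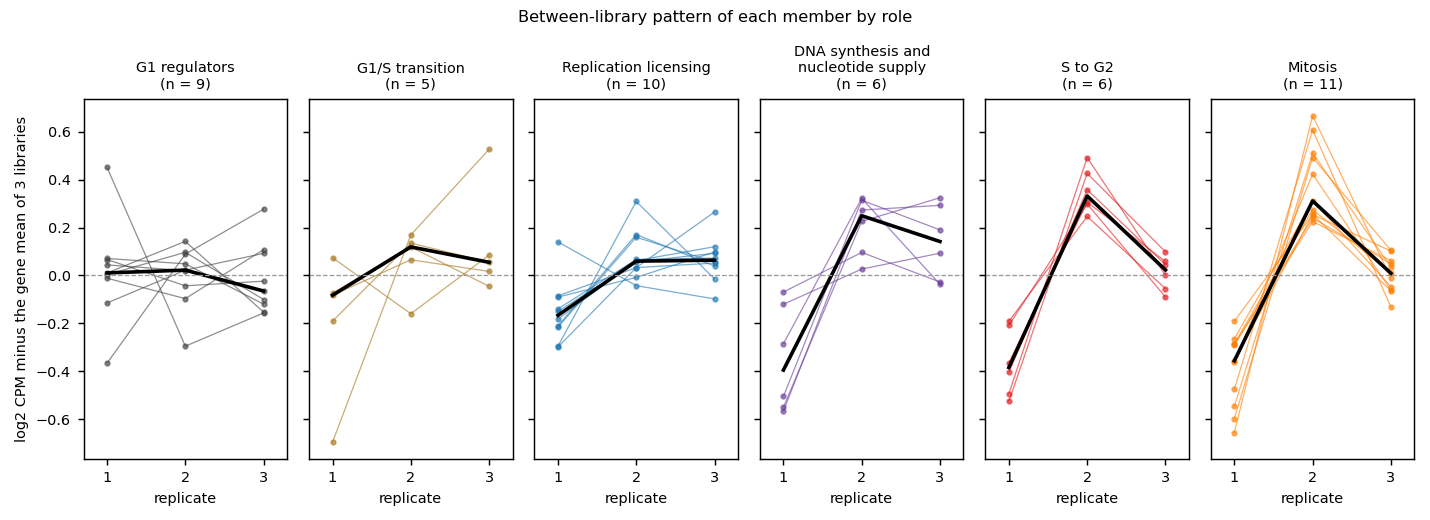
Log2 CPM of each member minus its mean over the 3 libraries, by replicate and role, with 1 thin line per gene and the median of the role in black. In the S to G2 and mitosis panels all 17 lines are lowest at replicate 1 and highest at replicate 2, while lines of the G1 regulators cross.

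Fold counts at 1.5 were read against all genes past the count filter. Replicate 1 was lower by at least 1.5-fold than the mean of the other 2 libraries for 11 members (Ccne2, Rrm2, Tk1, Uhrf1, Ccna2, Ccnb2, Mki67, Plk1, Birc5, Ube2c and Cenpf), where 5.73% of all genes were. Of the 17 S to G2 and mitosis members 7 were lower, where 2.81% of genes in their CPM range were. Against replicate 2 alone replicate 1 was lower for 16 members, with 4.41% of all genes, and against replicate 3 alone for 8, with 8.18%. It was higher for 1 member, Ccnd2, with 1.74% of all genes.

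Replicate 2 was higher by at least 1.5-fold for 7 members (Ccna2, Ccnb2, Plk1, Cdc20, Birc5, Ube2c and Cenpf), where 2.3% of all genes were. Replicate 1 weighs on that count: against replicate 3 alone 2 members passed, with 1.65% of all genes, and against replicate 1 alone the 16 counted above did. Replicate 2 was lower for 0 members, with 4.16% of all genes. Replicate 3 was higher for 1 member, Ccne2, with 6.41% of all genes, and lower for 0, with 0.935%. Against replicate 2 alone replicate 3 was higher for 0 members, with 6.6% of all genes. In the other direction replicate 2 was lower than replicate 1 alone for 1 member, with 3.34% of all genes, and replicate 3 was lower than replicate 1 alone for 1, with 2.06%.

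By rank alone, replicate 1 was lowest for 38 of 47 members, with 34.1% of all genes, and replicate 2 was highest for 28, with 30.9%. The median log2 difference of replicate 1 from the other libraries was -0.32 over the members and -0.01 over all genes past the filter. By role it was 0.02 for the G1 regulators, -0.12 for G1/S, -0.25 for licensing, -0.59 for DNA synthesis, -0.58 for S to G2 and -0.53 for mitosis. The difference between roles was not tested. Among licensing genes Gmnn was the exception, at 0.21, while Mcm7 at -0.44 and Cdc6 at -0.44 were the lowest.

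**Figure D3:**
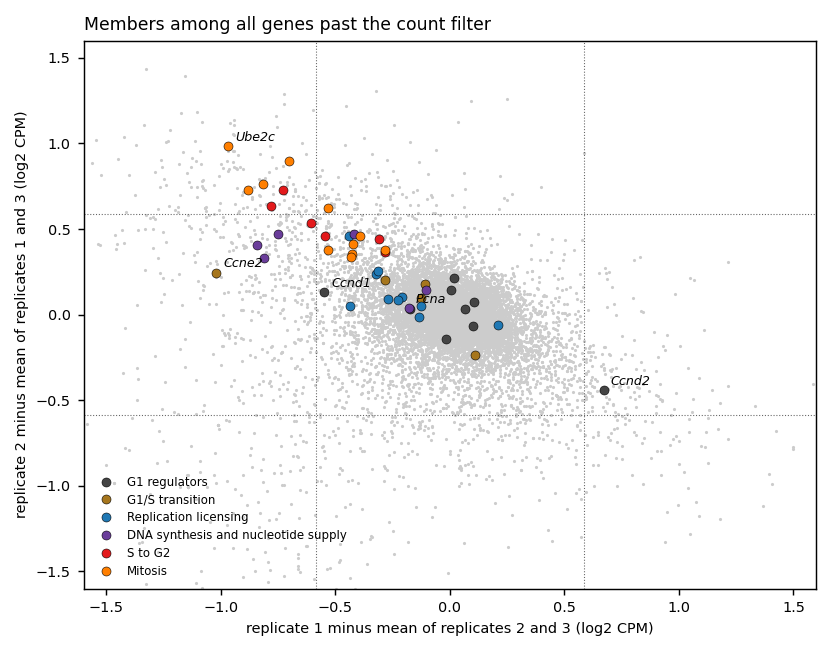
For each gene past the count filter, the log2 CPM difference of replicate 1 from the other 2 libraries (x) and of replicate 2 from the other 2 (y), with members coloured by role and dotted lines at 1.5-fold; 96 other genes lie outside the axes. All 17 S to G2 and mitosis members lie to the left of 0 and above 0, with x from -0.97 to -0.28 and y from 0.34 to 0.99.

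The spread between libraries differed by role. The median SD of log2 CPM over the 3 libraries was 0.34 for the 17 S to G2 and mitosis members and 0.13 for the other 30. Within those 30 it was 0.37 for the 6 DNA synthesis genes, 0.15 for licensing, 0.14 for G1/S and 0.10 for the G1 regulators. For all genes past the filter, not matched for level, it was 0.12. Over all 47 it was 0.26. An SD above that of counting error alone was found for 45 of them, but this count has no background over all genes. Without replicate 1 the median over all 47 was 0.13. Interferon-stimulated genes were highest in replicate 1 for 12 of 12 and nuclear-retained RNAs highest in replicate 3 for 5 of 5. No share of all genes was taken for these counts, and 3 of the 5 nuclear-retained RNAs stayed below 1 TPM in every library. The part of both lists in the member pattern was not tested. Progenitor and promyelocyte markers summed to 6.41, 7.60 and 4.65 CPM against 144, 238 and 192 CPM for the 17 genes, and their part was not tested.

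Other genes of the same pathways were counted in lists that do not overlap the members. Like the members, these lists were chosen with earlier results of these data known. Of 40 further mitosis genes, led by Cenpa, Pttg1 and Incenp, 32 were lowest in replicate 1 and 31 highest in replicate 2, 15 were at least 1.5-fold lower in replicate 1 and 10 at least 1.5-fold higher in replicate 2. Of 40 further replication fork genes, led by the clamp loader subunits Rfc2 and Rfc1 and the polymerase subunit Pold4, 18 were lowest in replicate 1, 17 highest in replicate 2 and 1 at least 1.5-fold lower in replicate 1. Over all genes past the count filter 34.1% were lowest in replicate 1 and 30.9% highest in replicate 2. At 1.5-fold 5.73% were lower in replicate 1 and 2.3% higher in replicate 2. The median log2 difference of replicate 1 was -0.44 for the mitosis list and -0.08 for the fork list. The 2 highest of the mitosis list by TPM did not share the order of replicate 1 lowest and replicate 2 highest: Cenpa, the centromeric histone, had 45.9, 42.1 and 57.7 CPM and Pttg1, securin, had 13.3, 10.1 and 9.22 CPM. Cenpa was highest in replicate 3 and Pttg1 in replicate 1.

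Of 19 genes of the E2F, pocket protein, DREAM and MYB-FOXM1 factors, 13 reached 1 TPM in every library, led by Max, Rbbp4 and Rbl2. Of the 19, 2 were at least 1.5-fold lower in replicate 1, with 5.73% of all genes. At the same fold 1 was higher in replicate 2, with 2.3% of all genes. Of 20 other kinase inhibitor and quiescence genes 17 reached 1 TPM, among them Maf, which restrains macrophage self-renewal, and Foxo3. Of 18 past the count filter 1 was higher and 1 lower in replicate 1, with 1.74% and 5.73% of all genes. In replicate 2, 2 were higher, with 2.3% of all genes, and 10 were highest of the 3 libraries, with 30.9%. In replicate 3, 1 was lower, with 0.935% of all genes. Of 11 other nucleotide supply genes 8 reached 1 TPM, and none of 10 past the filter passed 1.5-fold in replicate 1 or 2. Between 1.74% and 5.73% of all genes did so in each direction. Samhd1, which degrades deoxynucleotides in resting myeloid cells, led this list at 132, 96.1 and 96.7 TPM, followed by the mitochondrial kinases Tk2 at 17.3, 14.6 and 15.4 TPM and Dguok at 10.7, 7.09 and 8.56 TPM. The TPM of Samhd1 and of Tk2 was above that of Rrm2 and of Tk1 in every library.

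Histone genes of the Hist1 to Hist4 clusters, made mainly in S phase and added after values had been seen, shared the high replicate 2. Of 61 past the count filter 56 were highest there and 36 at least 1.5-fold higher, with 30.9% and 2.3% of all genes. Summed levels were 556, 749 and 563 CPM.

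Transcript types separated members whose gene level does not stand for coding mRNA. The median member had 97.6% of its TPM in protein-coding transcripts, but 6 members had under 65%. These shares were taken for the members only, so the count has no background over all genes. Tyms had 21.9% ± 0.314 (SD, n = 3), and its leading transcript, Tyms-205 with 58.2%, is annotated for nonsense-mediated decay. Cdk1 had 59.9% ± 3.46, where the retained-intron transcript Cdk1-204 took 37.3%. Top2a had 64.9% ± 1.69, with the remainder in processed transcripts. In the kallisto-format tables the shares were 23.0% ± 10.9 for Tyms, 62.2% ± 3.50 for Cdk1 and 63.8% ± 1.51 for Top2a.

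For Mcm3, Gins2 and Tk1 the share was less secure. Mcm3 had 55.4%, 55.2% and 70.9% coding in replicates 1, 2 and 3, and a mean of 82.3% in the kallisto-format tables. Gins2 had 73.9%, 54.0% and 64.4%, and 85.0% in the kallisto-format tables. Tk1 had 64.4%, 79.7% and 48.3%, with the lowest share in replicate 3, where nuclear-retained RNA was highest; its part was not tested.

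**Figure D4:**
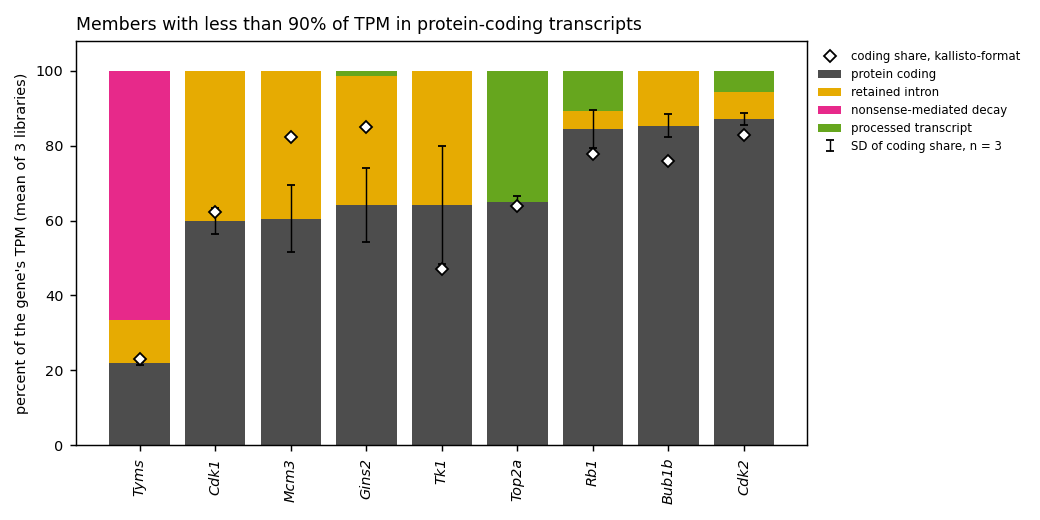
Percent of each gene's TPM by annotated transcript type (bars, mean of 3 libraries) for the 9 members under 90% protein coding, with the SD of the coding share and, as diamonds, the coding share in the kallisto-format tables. Tyms stands at 21.9% coding with most of its TPM in nonsense-mediated decay transcripts. Diamonds lie far above the grey bar for Mcm3 and Gins2. Shares were taken for the members only.

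Effective length also entered some levels. It differed by more than 1.2-fold between libraries for 3 members, and for Cenpf by 1.62-fold, where the highest library exceeded the lowest 2.88-fold in TPM and 2.08-fold in CPM. Ccnb2 shares sequence with Ccnb2-ps, whose 15, 27 and 32 counts came to 17.8% of those of Ccnb2, so its level is less certain. Pcna-ps2 held 0.806% of the counts of Pcna.

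Whether counting used strand was not given in the sources used here, and 20 members are overlapped by a gene on the other strand. An overlapping gene with at least 10% of the member's counts was annotated for 11 members: Ccnd1, Ccnd3, Cdk4, Rb1, Ccne2, Mcm7, Cdt1, Gins2, Tk1, Ccna2 and Cdc20. Cdc20 lies beside Elovl1, which had 2449, 3892 and 4659 counts where Cdc20 had 56, 147 and 138. Levels of these 11 are less certain where reads could be split.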

How the data were processed

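The authors deposited expected counts (estimated reads per gene, not always whole) and TPM in tables with RSEM columns, and estimated counts and TPM in tables with kallisto columns, per the file headers. Per the notes deposited with the libraries, the reference was mm10 with GENCODE M21; neither tool versions nor use of strand were stated. Expected counts were rounded. In edgeR 4.0.16 (R 4.3.3) genes passed filterByExpr, leaving 12413, and were scaled by TMM; log2 CPM used a prior count of 2. The common biological coefficient of variation was 0.145. Each library was set against the mean of the other 2 at 1.5-fold. Intervals are 95% exact and cover counting error only; a 0 allows up to 3 counts. Detection meant a TPM of at least 1 in every library. The fold calculation was tested on simulated data, with changes larger than 1.5-fold, in well-counted genes and with a coefficient of variation below 0.145. Changes of 1.5-fold in low-count members were not simulated. DESeq2 1.42.0 size factors were an alternative. Named genes were every member, the 3 highest of each other pathway list, and the 2 highest and those at 0 of each marker list; some genes that this rule names are not reported here. Members and lists were chosen with earlier results of these data known. Figures used matplotlib 3.10.9.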

Additional observations from a re-analysis of the deposited data

How the results depend on the processing

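With 3 libraries of 1 group, low members rest on few counts, and differences under about the counting interval were not detectable. The count of 34 members detected became 11 at a TPM of at least 5 and 42 at 0.5. It became 21 in kallisto-format TPM, 37 in posterior mean TPM and 47 when rescaled over protein-coding genes. The share of all genes at these other settings was not taken. The median level of 2.17 TPM became 2.81 with posterior mean TPM, 0.965 with kallisto-format TPM, 9.30 when rescaled over protein-coding genes and 3.48 without members below 1. The log2 gap between G1 regulators and mitosis genes, 2.36, became 1.84 with kallisto-format TPM, 2.96 rescaled, 3.10 with a pseudocount of 0.1 and 2.60 without low members; the causes were not tested. At 2-fold, members lower in replicate 1 numbered 1, and those higher in replicates 1, 2 and 3 numbered 0, 0 and 0. Leaving out each library in turn, the median SD ranged from 0.13 to 0.31, members higher in replicate 2 from 2 to 16 and lower from 0 to 1, and members higher in replicate 3 from 0 to 8 and lower from 1 to 2. Replicate 3, with 1 member higher and 0 lower, had 0 higher and 2 lower without replicate 1. The order of libraries was added after seeing the data: with DESeq2 size factors, total counts, TPM and kallisto-format TPM it held for 26, 27, 17 and 23 members, and for 17, 17, 12 and 12 of the 17 S to G2 and mitosis members. No paired analysis was possible because there is 1 group.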
